A study of Mus musculus with 6 samples.

Results

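The 47 genes described here copy DNA in S phase, supply the nucleotides and histones that copying consumes, or belong to the E2F and cyclin E control of that phase. They were taken from a list of gene symbols, all 47 were found among the 45777 genes of the deposited table, and all 47 passed the filter, which asked for a mean count of 10 or more across the 6 libraries, so none was left out. RNA came from whole hearts of BALB/c nude (CAnN.Cg-Foxn1nu/Crl) mice labelled as 6 weeks old, a strain that lacks a thymus and most T cells, and all groups, Control included, carried subcutaneous MDA-MB-231 tumours, a xenograft of a human breast cancer line. The female mice were treated for 3 weeks and made up 6 groups. Control received vehicle. Rh2-20 mg/kg and Rh2-30 mg/kg received ginsenoside Rh2, a ginseng saponin, every day. Dox received doxorubicin, an anthracycline that poisons topoisomerase II, at 2 mg/kg every other day to a cumulative 22 mg/kg. Both agents were given in Rh2-20 mg/kg + Dox, and likewise in Rh2-30 mg/kg + Dox. Each group was 1 library made from 5 pooled hearts, so a difference between single libraries has no replicate check. Only the 3 libraries with Dox against the 3 without could be tested, and the spread within each of those arms includes any effect of Rh2 dose.

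Replication begins when the origin recognition complex, Cdc6 and Cdt1 load the ring of Mcm2 to Mcm7 on DNA. Cdc45 and the GINS proteins then turn the ring into the active CMG helicase, and DNA polymerases copy both strands while the Pcna clamp holds them on the template. E2F transcription factors switch on many of these genes at the start of S phase, E2f7 and E2f8 being repressors in that family, whereas most cardiomyocytes of an adult mouse heart no longer divide. In bulk tissue such as this, fewer dividing cells and less of an mRNA per cell cannot be told apart.

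The libraries held 86164411 to 90621002 counts, with TMM factors between 0.959 and 1.08. The members had mean counts from 34.7 to 6528, with a median of 544 against 881 over the 18328 genes tested. Per length, their mean level ran from 0.219 FPKM for Orc1 to 31.9 FPKM for Pcna, with a median of 1.69 FPKM. All members were therefore detected, but the lowest of them rested on few counts, Gins2 on 34.7 per library.

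E2F factors bind short GC-rich motifs near transcription starts, so the promoters of the members were searched for TTTGGCGC, TTTCCCGC, TTTCGCGC and TTTGCCGC on both strands, each from 250 bases before to 50 bases after a RefSeq start on GRCm38.p6. A window was found for 39 of the 47 members. At least 1 of the 4 E2F motifs was present in 16 of the 39 (41.0%), against 704 of 27025 genes with a window (2.61%) and 4.31% of the tested genes that had one. The CCAAT box, searched as CCAAT on both strands, was in 24 of 39 members (61.5%) and in 41.1% of all genes. The following stretches, on the strand of the gene and 5′ to 3′, show where the letters matched. Capitals mark the E2F matches and positions count from the start as 1. Mcm5 and Mcm6 are shown because 2 matches on opposite strands overlap by 4 bases in each, and Mcm7 is shown as a subunit of the same ring with a single match in the stretch and a second one outside it, TTTCGCGC at 17 to 24:
Mcm5, chr8:75109334-75109393, plus strand, -175 to -116: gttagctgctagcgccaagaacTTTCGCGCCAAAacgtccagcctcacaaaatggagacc
Mcm6, chr1:128359731-128359830, minus strand, -125 to -26: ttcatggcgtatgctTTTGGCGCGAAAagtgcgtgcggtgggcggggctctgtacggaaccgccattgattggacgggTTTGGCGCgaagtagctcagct
Mcm7, chr5:138172029-138172058, minus strand, -175 to -146: atttcgaaccGCGGGAAAcagggtgtccaa

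The overlapping pair occurred in 4 of the 27025 genes (0.0148%), namely Mcm5, Mcm6, Msh3 and Mycn, the last 2 of which are no members and were named after the search. Mcm6 carried a further match closer to its start. The stretches of Mcm5 and Mcm6 lie outside annotated exons, while that of Mcm7 overlaps exons of Mcm7 and of its neighbour Ap4m1, that of Mcm3 below lies in an exon of Mcm3, and 21 bases of that of Orc1 lie in an exon of Orc1. Those of Cdc6 and Uhrf1 below lie outside exons but within a transcript of the same gene. The Uhrf1 match is before a later start, and the window at an earlier start of Uhrf1, chr17:56303087-56303386, held no E2F match. The next set holds members of other roles that are described below, the first 4 among those lower with Dox and the last 2 not:
Cdc6, chr11:98907991-98908050, plus strand, -160 to -101: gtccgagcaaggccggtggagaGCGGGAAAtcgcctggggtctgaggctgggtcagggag
Orc1, chr4:108579384-108579443, plus strand, -70 to -11: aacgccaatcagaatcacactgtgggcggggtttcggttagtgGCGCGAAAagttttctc
E2f7, chr10:110745219-110745278, plus strand, -220 to -161: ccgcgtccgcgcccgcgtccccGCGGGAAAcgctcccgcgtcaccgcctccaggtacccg
Uhrf1, chr17:56304103-56304162, plus strand, -210 to -151: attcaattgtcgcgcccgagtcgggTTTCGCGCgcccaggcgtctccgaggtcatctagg
Mcm3, chr1:20820266-20820293, minus strand, 20 to 47: GCGGGAAAacttgggaagtTTTGGCGCc
Pola1, chrX:93632256-93632315, minus strand, -160 to -101: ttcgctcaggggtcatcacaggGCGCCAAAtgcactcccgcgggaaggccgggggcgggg

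Members lower with Dox and other members both held E2F matches. A match was in 8 of the 17 members with a window that were lower with Dox at an unadjusted p under 0.05, and in 8 of the 22 others. The median log2 fold change with Dox was -0.45 over the 16 members with a match and -0.17 over the 23 members with a window and no match, and no test was made of that difference. A match is a description of letters, and binding was not measured.

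The question of the main comparison was which of these genes differed between hearts that had received Dox and hearts that had not. None of the 47 members passed an adjusted p of 0.05 in edgeR's quasi-likelihood test, adjusted by Benjamini-Hochberg over all 18328 genes, of which 5 passed (0.0273%). At an unadjusted p under 0.05, 19 members (40.4%) were lower with Dox, where 5.91% of all genes were, and 0 members were higher, where 4.20% of all genes were. All 3 libraries with Dox lay below all 3 without for 23 members (48.9%), against 9.16% of all genes, and all 3 lay above for 0 members, against 7.85%. The median log2 fold change of the members was -0.27, beside -0.01 for all tested genes. A negative sign was found for 40 of the 47, and for 9676 of the 18328 tested genes. DESeq2's Wald test on the same counts gave 8 members an adjusted p under 0.05, all lower with Dox, namely Uhrf1, Pole, Mcm6, Mcm5, Chaf1a, E2f1, Rrm2 and Cdt1. The calls below at an unadjusted p are therefore calls that did not pass the adjustment over all genes in edgeR.

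**Figure D1:**
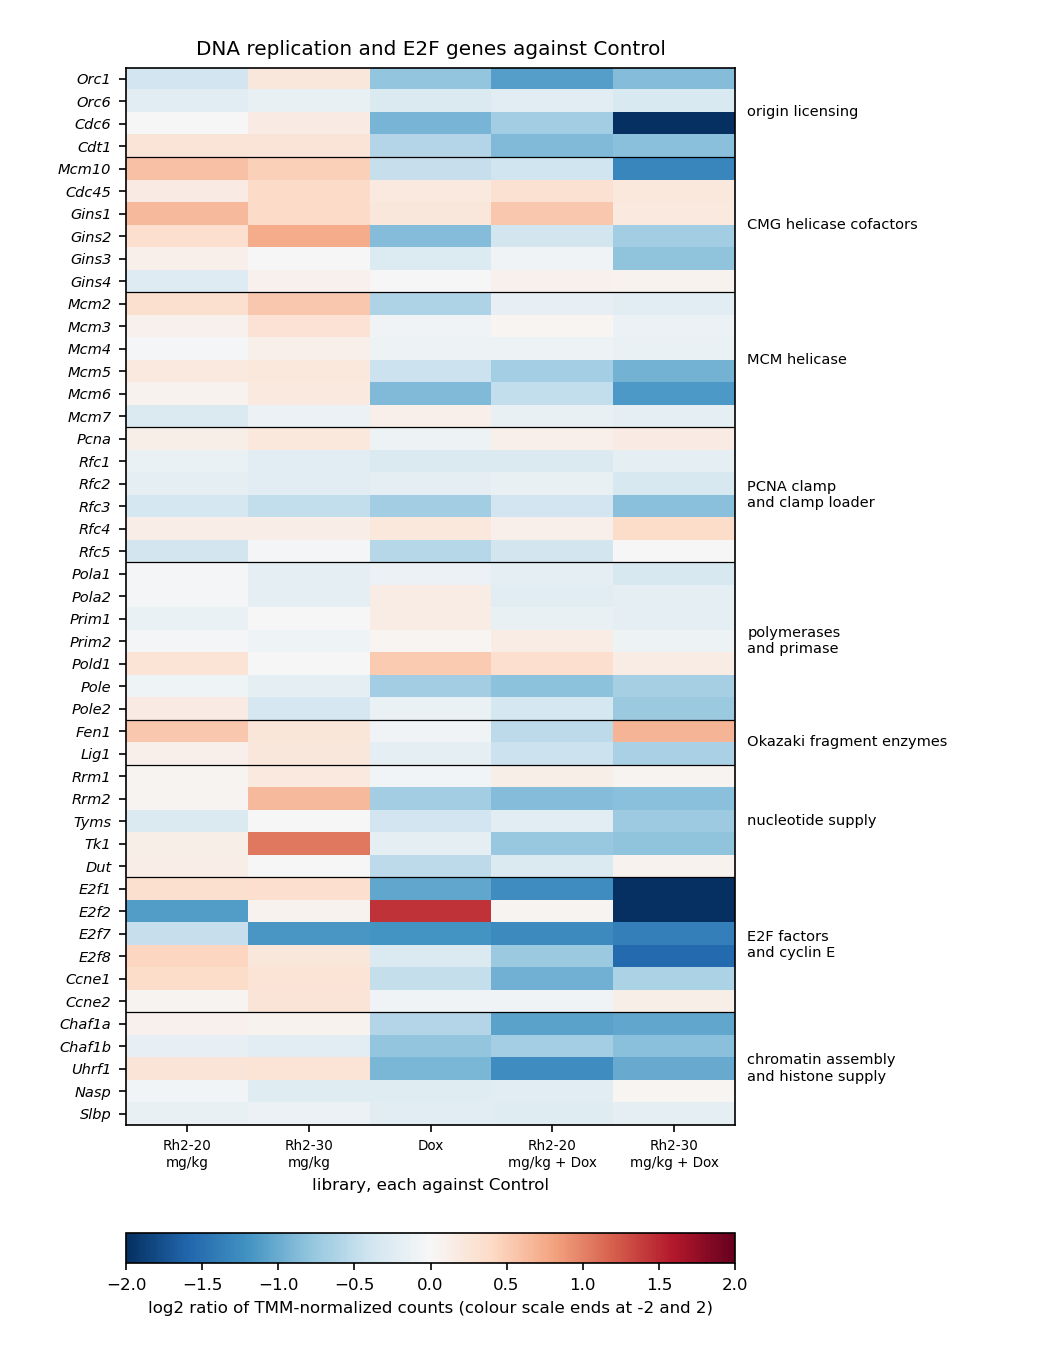
Heat map of the 47 members (rows, by role) in each treated library against Control (columns), coloured by the log2 ratio of TMM-normalized counts, with 1 library per condition and the colour scale ending at -2 and 2. The 3 columns with Dox hold more blue than the 2 with Rh2 alone, with medians of -0.27, -0.28 and -0.32 against 0.06 and 0.10, and E2f2 runs from 1.45 in Dox to -2.80 in Rh2-30 mg/kg + Dox.

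On median the 19 lower members were the less abundant ones. Their median mean level was 0.648 FPKM, and that of the other 28 was 4.51 FPKM. Their median log2 fold change was -0.93, from -0.52 for Lig1 to -1.72 for E2f1, with adjusted p-values from edgeR's quasi-likelihood test between 0.083 and 0.43. Among the other 28 the median was -0.09 and 4 had the libraries with Dox all below those without. Below, levels are TMM-normalized CPM, counts scaled by the library total and its TMM factor, given in the order Control, Rh2-20 mg/kg and Rh2-30 mg/kg for the libraries without Dox, and Dox, the combination with 20 mg/kg and the combination with 30 mg/kg for those with it. The fits are log2 fold changes with their standard error (SE), with Dox minus without, over 3 libraries an arm.

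Of the 4 origin licensing genes, 3 were lower at an unadjusted p under 0.05. Cdc6, the ATPase that joins the origin recognition complex and brings in the helicase, was at 2.15, 2.13 and 2.42 CPM without Dox and 1.13, 1.32 and 0.426 CPM with it. The library with both Dox and the higher Rh2 dose was by far the lowest, at 37 counts, and the arms did not overlap (log2 fold change -1.22 ± 0.40 SE). Cdt1, which carries the Mcm ring to the origin, was at 1.42, 1.70 and 1.70 CPM without Dox and 0.940, 0.764 and 0.794 CPM with it, and its 3 libraries with Dox lay close together below the others (-0.95 ± 0.22 SE). Orc1, the largest subunit of the origin recognition complex, was at 1.57, 1.20 and 1.84 CPM without Dox and 0.904, 0.731 and 0.863 CPM with it, again without overlap (-0.88 ± 0.25 SE). Orc6, the most abundant of the 4 per length, was at 11.6, 10.0 and 10.5 CPM without Dox and 9.52, 10.0 and 9.34 CPM with it. Its arms did not overlap either, but the difference was small and its interval spanned 0 (-0.15 ± 0.10 SE, 95% interval -0.39 to 0.09).

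Of the 6 subunits of the MCM ring 3 were called. Mcm2, Mcm5 and Mcm6 were lower with Dox at an unadjusted p under 0.05, and Mcm3, Mcm4 and Mcm7 were not. Mcm6 was at 9.04, 9.48 and 10.4 CPM without Dox and 4.90, 6.39 and 4.07 CPM with it, with a mean of 9.64 ± 0.688 CPM without Dox and 5.12 ± 1.18 CPM with it (SD, n = 3 libraries each). Every library with Dox was below every library without, and the fitted difference was -0.91 ± 0.18 SE. Mcm5 was at 7.09, 8.11 and 8.20 CPM without Dox and 5.25, 4.41 and 3.68 CPM with it (-0.81 ± 0.16 SE), and Mcm2 was at 6.71, 8.40 and 9.71 CPM without Dox and 4.37, 5.97 and 5.78 CPM with it (-0.62 ± 0.19 SE). For Mcm5 the lowest library was Rh2-30 mg/kg + Dox, and for Mcm2 it was Dox alone. The Benjamini-Hochberg adjusted p of edgeR's quasi-likelihood test was 0.216 for Mcm6 and Mcm5 and 0.356 for Mcm2. Mcm7, the most abundant subunit per length, was at 26.7, 21.8 and 24.5 CPM without Dox and 28.7, 24.0 and 23.5 CPM with it, and the arms overlapped, with Dox the highest of the 6 libraries. Its 95% interval was -0.22 to 0.34, that of Mcm3 was -0.45 to 0.10 and that of Mcm4 was -0.33 to 0.06, so differences of the size fitted for Mcm5 and Mcm6 lay outside all 3. Mcm3 and Mcm4 were nonetheless lower in the library with Dox at each Rh2 dose. Mcm4, at 20.4, 19.8 and 21.8 CPM without Dox and 18.9, 19.01 and 18.5 CPM with it, kept its libraries with Dox below the others by a small margin. Whether the subunits differed from each other was not tested. Exons of Mcm7 overlap those of Ap4m1 and Cops6 on the opposite strand, and how the authors' counting treated strand is not given in the sources used here. The same holds for Orc6, Cdc45, Rfc2, Rfc4, Rfc5, Fen1 and Ccne2, whose exons also overlap those of a protein-coding neighbour on the other strand.

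**Figure D2:**
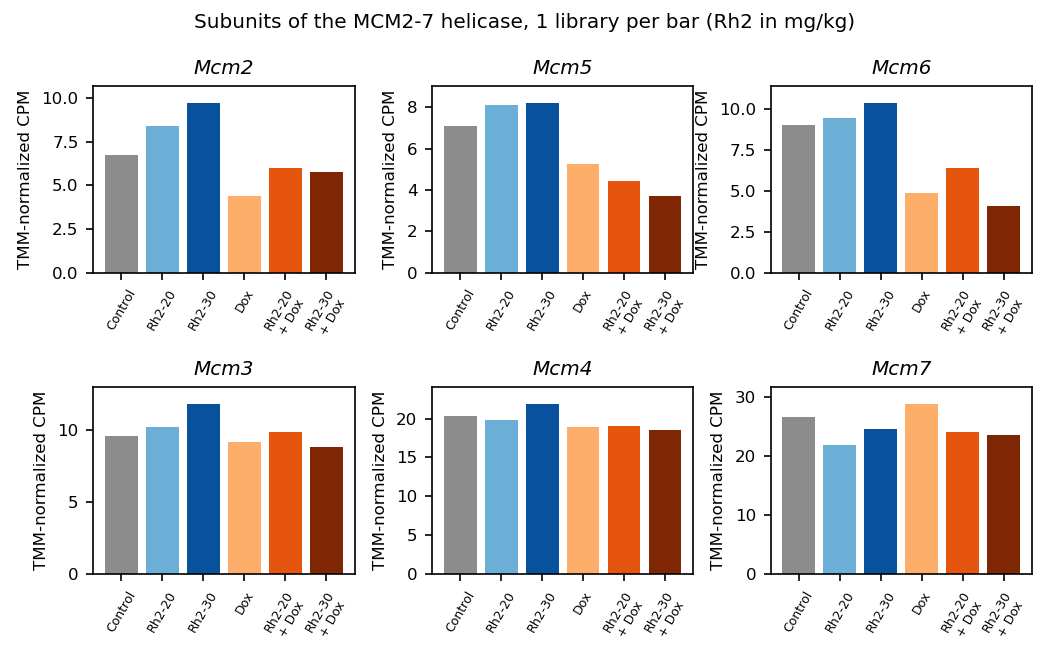
Bars of TMM-normalized CPM (y axis, from 0) for the 6 subunits of the MCM helicase, 1 bar per library. For Mcm2, Mcm5 and Mcm6 in the upper row the 3 bars with Dox are all shorter than the 3 without, while for Mcm3 and Mcm7 in the lower row they overlap and for Mcm4 they differ by little, 18.5 to 19.01 CPM against 19.8 to 21.8 CPM.

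Among the 6 cofactors that build or join the CMG helicase, Mcm10 and Gins2 were lower at an unadjusted p under 0.05. Mcm10, which helps to fire the assembled helicase, was at 1.54, 2.30 and 2.13 CPM without Dox and 1.12, 1.17 and 0.621 CPM with it, with the combination of Dox and the higher Rh2 dose lowest (-1.04 ± 0.31 SE). Gins2, a subunit of the GINS ring, was at 0.396, 0.50 and 0.664 CPM without Dox and 0.214, 0.306 and 0.242 CPM with it and did not overlap between the arms (-1.03 ± 0.36 SE). It is the member with the fewest counts, 18 to 63 per library, and 2758 bases of its exons overlap those of Gse1 on the other strand, which had a mean of 2009 counts. Its call was lost in 4 of the 6 fits that left out 1 library, those without Rh2-20 mg/kg, without Rh2-30 mg/kg, without Dox or without Rh2-30 mg/kg + Dox. Gins4, the most abundant of this group per length, was at 12.8, 10.7 and 13.7 CPM without Dox and 12.8, 13.6 and 13.5 CPM with it, which overlapped throughout (0.09 ± 0.12 SE). Cdc45, Gins1 and Gins3, the other partners of the ring, had log2 fold changes of 0.05, -0.05 and -0.38, none at an unadjusted p under 0.05.

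None of the 6 genes of the clamp and its loader was lower or higher at an unadjusted p under 0.05. Pcna, the sliding clamp and per length the most abundant member of all, was at 49.3, 53.2 and 56.9 CPM without Dox and 45.8, 52.7 and 55.1 CPM with it. The arms overlapped and the difference was -0.05 ± 0.10 SE, with a 95% interval of -0.29 to 0.19. A processed copy of it, Pcna-ps2, had a mean of 269.5 counts against 4626 for Pcna, and the authors' tools decided how reads shared by both were counted. Rfc1 to Rfc5, the subunits that open the clamp, had log2 fold changes from -0.36 for Rfc3 to 0.14 for Rfc4.

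Of the 7 polymerase and primase genes only Pole was lower at an unadjusted p under 0.05. Pole, the catalytic subunit of the polymerase that copies the leading strand, was at 18.1, 17.1 and 15.8 CPM without Dox and 11.2, 10.2 and 11.4 CPM with it without overlap, and the values within each arm lay close together. The mean was 17.0 ± 1.15 CPM without Dox and 11.0 ± 0.650 CPM with it, and the fitted difference was -0.63 ± 0.10 SE with an adjusted p of 0.157 in edgeR's quasi-likelihood test. Pola1, the catalytic subunit of the polymerase that extends the primers, was the most abundant of the group per length at 66.4, 64.3 and 58.9 CPM without Dox and 61.5, 58.2 and 53.0 CPM with it, and its arms overlapped (-0.13 ± 0.09 SE). Pole2, the partner of Pole, had -0.34 ± 0.20 SE, while Pola2, Prim1 and Prim2 lay between -0.01 and 0.08. Pold1, the catalytic subunit of the lagging strand polymerase, was the only member higher with Dox at all 3 Rh2 doses, by 0.53, 0.07 and 0.15 on the log2 scale, and its overall difference was 0.25 ± 0.13 SE with overlapping arms.

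Lig1, the ligase that seals Okazaki fragments, was at 11.6, 12.5 and 13.7 CPM without Dox and 10.3, 8.65 and 7.39 CPM with it. All 3 libraries with Dox were below the others, with the smallest fitted difference of the 19 (-0.52 ± 0.15 SE), and its exons overlap those of Zswim9 on the opposite strand. Fen1, which trims the flaps of those fragments, gave no common direction, at 1.91, 2.77 and 2.27 CPM without Dox and 1.81, 1.33 and 3.07 CPM with it, and the library with the highest value was Rh2-30 mg/kg + Dox.

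In nucleotide supply, Rrm2 and Tk1 were lower at an unadjusted p under 0.05. Rrm2, the ribonucleotide reductase subunit made in S phase, was at 2.82, 2.92 and 4.43 CPM without Dox and 1.75, 1.55 and 1.58 CPM with it, with the 3 libraries with Dox close together and Rh2-30 mg/kg the highest of all (-1.06 ± 0.23 SE). Rrm1, the large and more stable subunit, was at 30.1, 31.1 and 34.4 CPM without Dox and 28.8, 32.6 and 31.3 CPM with it, and its arms overlapped (-0.04 ± 0.09 SE, 95% interval -0.27 to 0.18). Whether the 2 subunits differed was not tested. Tk1, thymidine kinase of S phase, was at 0.852, 0.922 and 1.77 CPM without Dox and 0.750, 0.502 and 0.483 CPM with it and did not overlap between arms (-1.03 ± 0.38 SE). It was the least firm of the 19, with an unadjusted p of 0.0288 in edgeR's quasi-likelihood test, and without the Rh2-30 mg/kg library its log2 fold change was -0.61 and no longer called. Its exons also overlap those of Afmid on the opposite strand. Tyms and Dut, which make thymidylate and remove dUTP, had log2 fold changes of -0.33 and -0.27 with overlapping arms.

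In the E2F and cyclin E group 4 of 6 were lower at an unadjusted p under 0.05. E2f1, an activator of S phase genes, was at 2.34, 2.93 and 2.96 CPM without Dox and 1.14, 0.982 and 0.368 CPM with it. It had the largest difference of the 47 members (-1.72 ± 0.41 SE), with 195, 264 and 281 counts without Dox against 96, 90 and 32 with it, and an adjusted p of 0.288 in edgeR's quasi-likelihood test. E2f8 was at 2.99, 4.03 and 3.51 CPM without Dox and 2.44, 1.78 and 1.01 CPM with it, with the combination of Dox and the higher Rh2 dose lowest (-1.01 ± 0.32 SE). Ccne1, cyclin E1, which drives entry into S phase with Cdk2, was at 1.20, 1.54 and 1.44 CPM without Dox and 0.857, 0.611 and 0.771 CPM with it (-0.90 ± 0.25 SE), whereas Ccne2, cyclin E2, overlapped between arms with -0.11 ± 0.14 SE.

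E2f7 followed another course. It was at 21.4, 15.5 and 9.52 CPM without Dox and 9.39, 8.83 and 8.31 CPM with it. Control stood apart at the top and Rh2-30 mg/kg without Dox reached the level of the libraries with Dox, so that the arms nearly met, at 9.52 CPM and 9.39 CPM, although the fitted difference was -0.81 ± 0.27 SE. Without the Control library the log2 fold change was -0.50 and no longer called.

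Among the chromatin assembly and histone genes 3 of 5 were lower at an unadjusted p under 0.05. Uhrf1, which brings the maintenance DNA methyltransferase to freshly copied DNA, had the lowest p-value of all 47 members. It was at 6.07, 7.24 and 7.36 CPM without Dox and 3.24, 2.58 and 3.00 CPM with it, a mean of 6.89 ± 0.711 CPM without Dox and 2.94 ± 0.335 CPM with it, 2.35-fold lower, with -1.23 ± 0.15 SE and an adjusted p of 0.0830 in edgeR's quasi-likelihood test. The libraries with Dox lay between 2.58 and 3.24 CPM and those without between 6.07 and 7.36 CPM. Chaf1a and Chaf1b, subunits of the factor that loads histones behind the fork, were at 3.52, 3.73 and 3.70 CPM without Dox and 2.33, 1.68 and 1.71 CPM with it and at 1.81, 1.62 and 1.57 CPM without Dox and 1.05, 1.13 and 1.01 CPM with it, in that order. Both pairs of arms were separate, with -0.93 ± 0.19 SE for Chaf1a and -0.65 ± 0.20 SE for Chaf1b, though 2542 bases of the exons of Chaf1a overlap those of Ubxn6 on the other strand. Nasp, a histone chaperone and the most abundant of this group per length, was at 67.8, 65.3 and 57.5 CPM without Dox and 57.4, 58.6 and 69.7 CPM with it. Its highest library was Rh2-30 mg/kg + Dox and its lowest were Dox and Rh2-30 mg/kg, so that no direction with Dox was seen (-0.04 ± 0.11 SE). Slbp, which binds the stem-loop of histone mRNA, was at 15.2 to 15.7 CPM with Dox and 16.2 to 17.9 CPM without (-0.13 ± 0.09 SE).

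**Figure D3:**
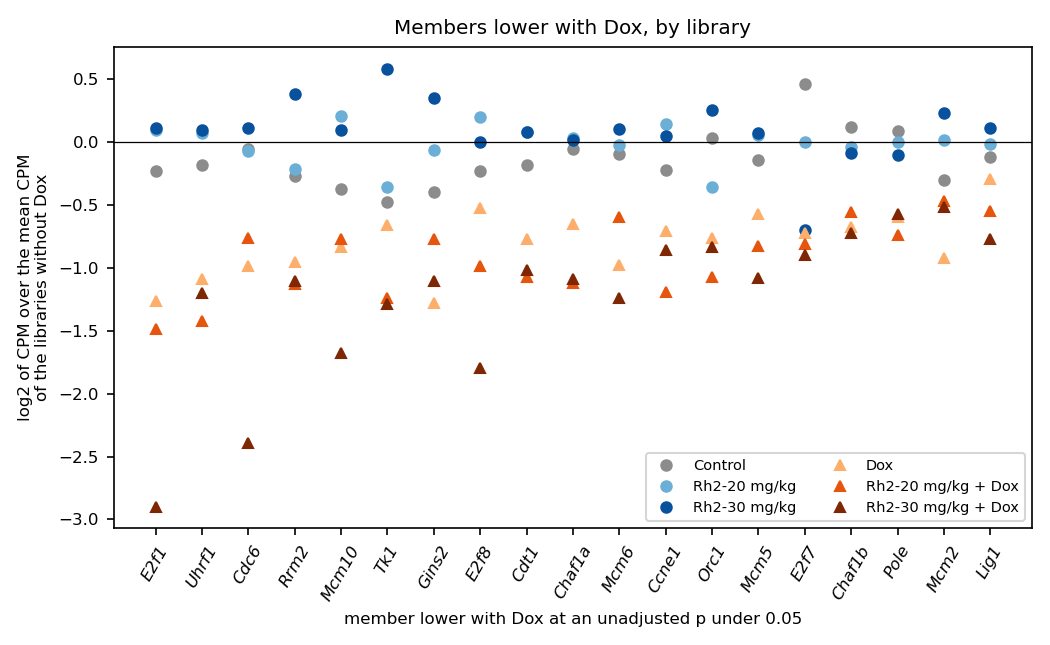
The 19 members lower with Dox at an unadjusted p under 0.05 (x axis, ordered by fitted difference), each library as the log2 of its CPM over the mean CPM of the 3 libraries without Dox (circles without Dox, triangles with Dox). All triangles of a gene lie below all of its circles, most narrowly for E2f7, and the darkest triangle (Rh2-30 mg/kg + Dox) is far below the rest for E2f1, Cdc6, Mcm10 and E2f8.

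The Dox difference can be taken at each Rh2 dose from a pair of libraries that shares none with the other pairs. The 19 lower members had medians of -0.69, -0.87 and -1.15 on the log2 scale at Rh2 doses of 0, 20 and 30 mg/kg, and the other 28 had -0.09, -0.04 and -0.11. Since the 19 were chosen with the same libraries, these medians describe them and are no second test. Each pair also has its own reference. In Rh2-30 mg/kg, the reference of the last pair, all of the 19 except E2f7, Chaf1b and Pole lay above Control. Of all 47, 29 members (61.7%) were lower in all 3 pairs, against 17.6% of all tested genes, and 1 (2.13%), Pold1, was higher in all 3, against 15.9%.

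More members were at least 2-fold lower in the pair at 30 mg/kg than in the other pairs, and so were more of all genes. Some cell markers differed in that pair too. In it 6 of 6 B cell, 5 of 6 macrophage, 4 of 6 fibroblast, 4 of 6 brown fat and 4 of 5 tested white fat markers were 2-fold lower. So were 3 of 6 erythroid and 2 of 3 tested T cell markers. The count was 0 of 6 for endothelial, 0 of 6 for cardiomyocyte, 0 of 2 tested for neutrophil and 0 of 5 tested for skeletal muscle markers. Of the T cell and the skeletal muscle markers 1 each was 2-fold higher. The part of these cells in the members' counts was not tested. In Dox against Control 2 members were at least 2-fold lower (3.58% of all genes were), E2f1 and E2f7, and 1 was higher, E2f2 (5.44% of all genes). In Rh2-20 mg/kg + Dox against Rh2-20 mg/kg 7 members (14.9%) were lower, against 2.87% of all genes, namely E2f1, Uhrf1, Ccne1, E2f8, Chaf1a, Cdt1 and Fen1, and E2f2 alone was higher, against 4.09%. In Rh2-30 mg/kg + Dox against Rh2-30 mg/kg 14 members (29.8%) were lower, against 12.1% of all genes, and 0 were higher, against 2.40%. The 14 were 2 MCM subunits (Mcm5 and Mcm6), 3 licensing genes (Orc1, Cdc6 and Cdt1), Mcm10, Gins2, Rrm2, Tk1, E2f1, E2f2, E2f8, Chaf1a and Uhrf1. The steepest were E2f1, with 32 against 281 counts and a log2 ratio of -2.99 (95% interval -3.58 to -2.48), and Cdc6, with 37 against 229 counts and a log2 ratio of -2.49. The interval is an exact conditional binomial one for 1 library against 1 library and covers counting error only.

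**Figure D4:**
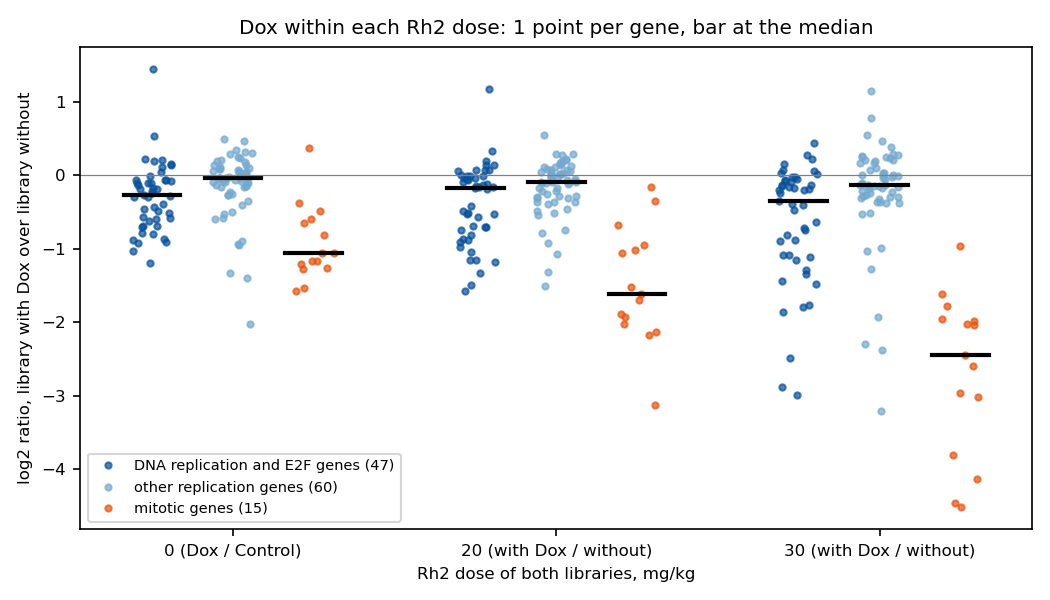
Log2 ratio of the library with Dox over the library without (y axis) at each Rh2 dose (x axis), 1 point per gene for the 47 members, 60 other replication genes and 15 mitotic genes, with a bar at each median. The members' medians are -0.27, -0.17 and -0.34 and their points spread further down at 30 mg/kg, while the mitotic genes have medians of -1.06, -1.61 and -2.44.

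Against Control, which all 5 comparisons share, the members lay close to it on median in the libraries with Rh2 and no Dox. Their median log2 ratio was 0.06 at 20 mg/kg and 0.10 at 30 mg/kg. Single members were further above Control at 30 mg/kg, among them Gins2 at 0.74 and Rrm2 at 0.65, while Chaf1b and Pole were below it. The 15 mitotic genes were all above Control at that dose, with a median of 0.44. Rh2-20 mg/kg had 1 member 2-fold lower (2.80% of all genes), E2f2, and 0 higher (3.35%). At Rh2-30 mg/kg 1 was lower (1.63%), E2f7 at -1.17 (95% counting interval -1.29 to -1.05), and 1 was higher (8.48%), Tk1 at 1.05 (0.65 to 1.48) from 168 against 71 counts. In Rh2-20 mg/kg + Dox 5 members were lower (10.6%, against 3.62% of all genes), Orc1, E2f1, E2f7, Chaf1a and Uhrf1, and 0 were higher (5.13%). In Rh2-30 mg/kg + Dox 9 were lower (19.1%, against 6.85%), Cdc6, Mcm10, Mcm6, E2f1, E2f2, E2f7, E2f8, Chaf1a and Uhrf1, and 0 were higher (4.08%). E2f1 and E2f7 were the members 2-fold below Control in all 3 libraries with Dox, E2f1 by 2.04-fold, 2.38-fold and 6.28-fold and E2f7 by 2.28-fold, 2.42-fold and 2.58-fold in the order Dox alone, combination at 20 mg/kg and combination at 30 mg/kg.

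Whether adding Rh2 to Dox brought these genes back was asked by comparing the combinations with the Dox library, which both share. The median log2 ratio of the members was -0.01 for the combination at 20 mg/kg and -0.14 for that at 30 mg/kg. With 20 mg/kg 1 member was 2-fold lower than in Dox (3.44% of all genes), E2f2, and 0 were higher (3.08%). With 30 mg/kg 4 members were lower (8.51%, against 7.35%), E2f2, E2f1, Cdc6 and E2f8, and 0 were higher (2.76%). E2f1 and E2f7 were the only members 2-fold lower in Dox than in Control, and E2f2 was the only one 2-fold higher. For the other members a full return to Control would not have reached 2-fold, so a 2-fold count says little about a return in them. E2f2 was at 2.36 CPM with 20 mg/kg, close to the 2.28 CPM of Control, and at 0.322 CPM with 30 mg/kg, below Control. Above the Dox library lay 22 of 47 members with 20 mg/kg, where 9286 of the 18328 tested genes did. With 30 mg/kg it was 15 members, and 8580 of the tested genes. Mcm2 was above it in both, by 0.45 (95% counting interval 0.26 to 0.65) and 0.40 (0.21 to 0.60) on the log2 scale. Mcm6 was above it with 20 mg/kg, at 0.38, and below it with 30 mg/kg, at -0.27. With 30 mg/kg the members furthest above were Fen1, at 0.76 (0.47 to 1.06), and Dut, at 0.59 (0.47 to 0.71).

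E2f2, another activator of the E2F family, took opposite directions at different Rh2 doses. It was at 2.28, 1.04 and 2.40 CPM without Dox and 6.23, 2.36 and 0.322 CPM with it, with 524 counts under Dox alone and 28 under Rh2-30 mg/kg + Dox, and over the arms its difference was 0.64 ± 0.87 SE, or -0.51 without the Dox library. With Dox it was higher at Rh2 doses of 0 and 20 mg/kg, with log2 ratios of 1.45 and 1.17, and lower at 30 mg/kg, with -2.88. The 6 erythroid markers are haemoglobin chains and red cell precursor genes. Their summed level was 2288, 1646 and 2086 CPM without Dox and 6911, 3814 and 1055 CPM with it. Singly the list split. Only 1 of the 6, Epor, was lower with Dox at an unadjusted p under 0.05, at 0.738 CPM in Dox against 1.33 CPM in Control. The other 5 lay above Control in the Dox library. When Dox was combined with Rh2 at 20 mg/kg, 3 markers exceeded Control and 3 fell short of it. At 30 mg/kg all 6 fell short. E2f2 and the erythroid sum were both highest in the Dox library and lowest when Dox was combined with Rh2 at 30 mg/kg. The part of red cell precursors in the E2f2 level was not tested.

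**Figure D5:**
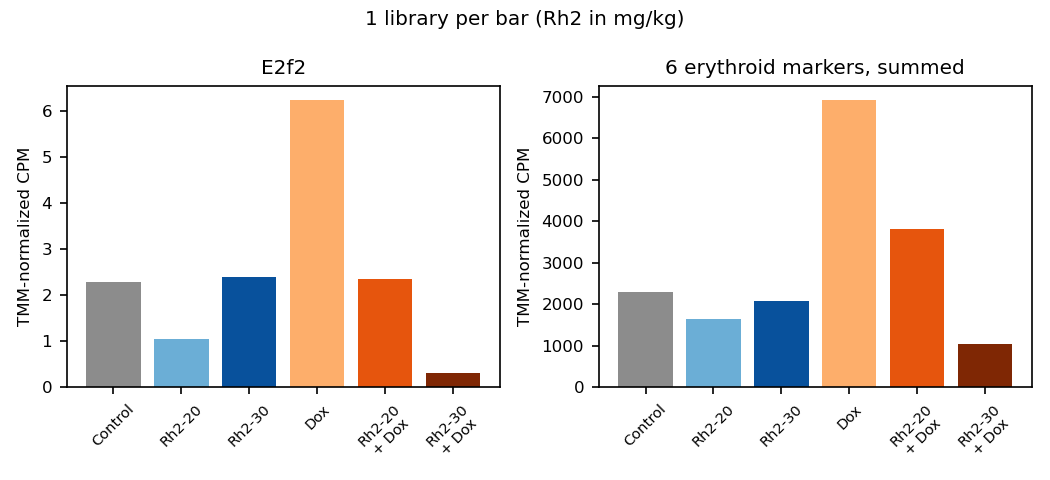
E2f2 (left) and the sum of 6 erythroid markers (right) in TMM-normalized CPM (y axes, from 0), 1 bar per library. Both are highest in Dox, at 6.23 and 6911 CPM, and lowest in Rh2-30 mg/kg + Dox, at 0.322 and 1055 CPM. In Rh2-20 mg/kg + Dox, at 2.36 and 3814 CPM, E2f2 is at the level of Control and the erythroid sum above it. Both are higher there than in Rh2-20 mg/kg without Dox, at 1.04 and 1646 CPM.

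A list of 60 further replication genes, of which 0 passed an adjusted p of 0.05 in edgeR's quasi-likelihood test, had a median log2 fold change of -0.07, with 12 lower and 1 higher, Orc5, at an unadjusted p under 0.05. Its lowest were Dscc1, a clamp loader subunit of sister chromatid cohesion, at -1.95 ± 0.30 (SE), and Ccna2, cyclin A2, at -1.79 ± 0.40. Its highest were Gmnn, the inhibitor of Cdt1, at 0.33 ± 0.25, and Recql4, a helicase, at 0.30 ± 0.31. Genes of mitosis lay much lower than either set. Of 15 such genes (Mki67, Top2a, Cdk1 and others) 14 were lower at an unadjusted p under 0.05, with a median of -1.67, and their summed level was 174 to 232 CPM without Dox and 21.9 to 79.9 CPM with it.

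Markers of other cells of the heart were summed for the same libraries. B cell markers were at 14.2 to 36.7 CPM without Dox and 7.43 to 11.4 CPM with it, and 5 of 6 were lower at an unadjusted p under 0.05. Macrophage markers were at 262 to 378 CPM and 186 to 300 CPM (1 of 6 lower), fibroblast markers at 1211 to 2067 CPM and 849 to 1406 CPM (2 of 6 lower), and endothelial markers at 1547 to 1767 CPM and 1496 to 1726 CPM (1 of 6 lower). Cardiomyocyte markers, at 18908 to 23947 CPM and 22054 to 25865 CPM, were present throughout, as the heart label requires, with 1 of 6 higher. T cell markers summed to at most 3.09 CPM, with 1 of 6 at 0 in every library and, of 3 tested, 1 lower and 1 higher, and neutrophil markers to at most 13.4 CPM, with 0 of 2 tested lower. Brown fat markers were at 215 to 288 CPM and 210 to 280 CPM (2 of 6 lower), white fat markers at 718 to 977 CPM and 713 to 738 CPM, and skeletal muscle markers at 598 to 874 CPM and 611 to 751 CPM (0 of 5 tested lower in either). Both fat sums hide large differences of their members. The median log2 ratio of the white fat markers was 3.07 in Dox against Control and -8.81 in Rh2-30 mg/kg + Dox against Rh2-30 mg/kg. That of the brown fat markers was 1.74 in Rh2-30 mg/kg against Control and -2.99 in Rh2-30 mg/kg + Dox against Rh2-30 mg/kg. The Rh2-30 mg/kg library held the highest sums of B cell (36.7 CPM), macrophage (378 CPM) and fibroblast (2067 CPM) markers. The B cell sum was thus lower with Dox without overlap, as the 19 lower members were, though only 3 of its 6 markers were so singly. In Rh2-30 mg/kg the B cell sum was 36.7 CPM against 14.9 CPM in Control, with a median log2 ratio of 1.42 over its markers. The median log2 ratio of the 47 members was 0.10 there. All of the 19 lower members except E2f7, Chaf1b and Pole were above Control, from 0.07 for Chaf1a to 1.05 for Tk1. The part of B cells in the members' levels was not tested.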

How the data were processed

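The authors trimmed the reads, aligned them to mm10 with HISAT2 2.1.0 and estimated abundance with StringTie 2.1.3b, per the labels and the study's methods. The deposited table gave a whole-number read count, an FPKM and a TPM per gene and library. The counts carried no normalization and the FPKM were scaled by length and library. The TPM, which the authors' tool scales to the same total in each library, were not used.

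The 47 members, the lists and the rule for named genes were chosen with earlier results of these data known. Values were given for members with an unadjusted p under 0.05, members 2-fold from Control in any library and the most abundant member per length of each role. Any other member was named with its values already known.

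The count analysis used R 4.3.3 and edgeR 4.0.16 (TMM, a mean of at least 10 counts, quasi-likelihood test, two-sided, Benjamini-Hochberg adjustment over 18328 genes), DESeq2 1.42.0 and limma 3.58.1. Figures used matplotlib 3.10.9 in Python 3.11.15. The p-values of edgeR measure the spread between pools, not between mice. Single libraries were compared by log2 ratios with a prior count of 0.5, called at 2-fold, with exact conditional binomial 95% intervals. The steps were tested on simulated data. The alternatives were Rh2 dose as a term, DESeq2's test and size factors, no filter, log2(FPKM + 1) and log2(FPKM + 0.1), a prior count of 2, edgeR's exact test with the study's criteria, and each library left out in turn. limma on log2(FPKM + 0.1) was added after seeing the data. Promoters and their positions came from RefSeq, and exon overlaps from the GENCODE annotation of the same build.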

Additional observations from a re-analysis of the deposited data

Results flagged for a closer look

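E2f2 was flagged because the difference with Dox took opposite signs at different Rh2 doses, a log2 ratio of 1.45 at 0 mg/kg, 1.17 at 20 mg/kg and -2.88 at 30 mg/kg, each from 1 library against 1 library. The difference between the doses was not tested. The summed erythroid markers had their highest and lowest values in the same libraries as E2f2, Dox and Rh2-30 mg/kg + Dox, and their part in it was not tested.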

How the results depend on the processing

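All 19 members called lower with Dox kept their negative sign under every alternative run, and 16 to 19 of them kept an unadjusted p under 0.05. Those lost were Tk1 with Rh2 dose as a term and with log2(FPKM + 1), and 4 in fits that left out 1 library: E2f8 (-0.89 without Rh2-20 mg/kg), E2f7 (-0.50 without Control, -0.81 and -0.76 without the combination at 20 or at 30 mg/kg), Gins2 (-0.92 without Dox, -0.81 without Rh2-30 mg/kg, -1.05 without Rh2-20 mg/kg, and also without Rh2-30 mg/kg + Dox) and Tk1 (-0.61 without Rh2-30 mg/kg, -0.94 and -0.92 without the combination at 20 or at 30 mg/kg). Gained were Rfc1 with log2(FPKM + 1), Gins3 and Tyms without Rh2-20 mg/kg + Dox, and Dut without Rh2-30 mg/kg + Dox. Leaving out 1 library gave 17 to 19 members lower, 0 to 1 higher (Pold1, without Rh2-20 mg/kg or without Rh2-30 mg/kg + Dox), 0 at an adjusted p under 0.05 and a median from -0.33 to -0.20. The sign of Mcm7, Cdc45, Gins1, Pcna, Rfc2, Pola2, Prim1, Fen1, Rrm1, Nasp and E2f2 changed in at least 1 such fit or alternative. DESeq2's Wald test called 8 members at an adjusted p under 0.05 against 0 in edgeR, and the cause was not tested. No filter, a prior count of 2, the study's criteria and DESeq2's size factors left every 2-fold count within 1.5 times the value given.

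With log2(FPKM + 1), which shrinks ratios of genes at a low FPKM, 1 member was 2-fold lower with Dox at 30 mg/kg Rh2 (14 on counts), and 0 were 2-fold lower or higher in any other comparison. With log2(FPKM + 0.1), 1 member was lower in Dox against Control (2 on counts), 3 in Rh2-20 mg/kg + Dox against Control (5), 0 in each Rh2 dose alone (1 each), 3 lower and 0 higher in Rh2-20 mg/kg + Dox against Rh2-20 mg/kg (7 and 1), and 2 in Rh2-30 mg/kg + Dox against Dox (4). That scale moved the median of all genes to 0.16 in Rh2-30 mg/kg against Control and to -0.16 in Rh2-30 mg/kg + Dox against Rh2-30 mg/kg, and the members' medians there were 0.23 and -0.49. The members' median in Rh2-20 mg/kg + Dox against Dox was -0.01 on counts and turned to 0.01 and 0.02 on the FPKM scales. The fit with Rh2 dose as a term pairs the libraries with and without Dox by dose, and gave 18 members lower (Tk1 lost) and a median of -0.29. The labels carry no replicate numbers to pair by. Genes such as Gins2, with 18 to 63 counts a library, are limited by depth.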
